A study of Mus musculus with 11 samples.

Results

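Heat shock proteins and chaperonins are the cell's protein-folding helpers, and their genes were measured here by RNA sequencing of the hippocampus in adult mice exposed before birth to particulate matter (PM), the fine dust of polluted air, or to saline. A gene belonged to the set when its symbol began with Hsp followed by a, b, d, e, h or 90, was Dnaja, Dnajb or Dnajc followed by a number, or was Cct2 to Cct8 with any ending, and opposite-strand and pseudogene names were to be left out, which removed 0 rows. The rule found 81 of the 24421 genes in the count files. They comprised 11 HSP70, 3 HSP110 and 3 HSP90 genes, 2 genes of the mitochondrial chaperonin and 8 genes with small heat shock protein symbols (Hspb). A further 9 were Cct genes, those of the cytosolic chaperonin TRiC and the related Cct8l1. There were 43 J-domain genes (4 Dnaja, 13 Dnajb and 26 Dnajc). The last 2, Hspbp1 and Hspbap1, were caught by the symbol rule because they are named after their binding to a heat shock protein. The rule used symbols and no measured value. Tcp1, the alpha subunit of TRiC, does not match it and is given as a partner.

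The PM group held 6 libraries from offspring of dams given PM by the nose at 200 µg per kg on gestation days 9, 12 and 15, and the vehicle group held 5 libraries from offspring of dams given normal saline. Birth was on day 21 and the hippocampus of the offspring was taken at 14 to 18 weeks of age. The labels give neither strain nor sex and do not tie libraries to animals or litters, so p-values measure the spread between these libraries, which may be technical in part. The library numbers in the labels start again after PM replicate 3, so the libraries were taken as 2 sets, the first with PM replicates 1 to 3 and vehicle replicates 1 to 3, the second with PM replicates 4 to 6 and vehicle replicates 4 and 5. For the second set another label field names PM for the vehicle libraries too, and the groups follow the treatment label of each library.

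The groups also differed in measures of the whole library. Counts assigned to genes numbered 10938521 to 17763893 in PM libraries and 6012116 to 12496651 in vehicle libraries. Between 18.8% and 34.0% of the reads counted in PM libraries fell in no annotated exon, against 60.9% to 62.0% in vehicle libraries. Rn45s, which carries the ribosomal RNA precursor, took 4.01% to 17.0% of gene counts in PM and 0.792% to 2.17% in vehicle libraries. Lars2 took 0.337% to 0.823% in PM and 0.00136% to 0.00773% in vehicle libraries. Malat1, a nuclear RNA, took 0.0827% to 0.807% in PM and 2.12% to 2.33% in vehicle libraries. Changes in PM also followed transcript length across all genes (Spearman correlation of log2 fold change with length -0.495 over 14864 genes, a description), with short transcripts higher and long ones lower. The main counts, and single genes where it mattered to the call or sign, are therefore also given with the trend over length and GC content removed. Marker genes of granule cells summed to 255 to 432 CPM (gene counts scaled to a common library size, with TMM factors) in PM and 315 to 411 CPM in vehicle libraries, and those of pyramidal cells to 522 to 621 CPM in PM and 556 to 708 CPM in vehicle libraries, so markers of both kinds of hippocampal neuron were present in both groups. The granule cell markers moved apart, with Prox1 lower (36.2 ± 7.52 CPM in PM libraries and 145 ± 20.5 CPM in vehicle libraries). C1ql2 was higher (97.6 ± 16.2 CPM in PM libraries and 47.1 ± 6.27 CPM in vehicle libraries). Astrocyte markers summed to 2952 to 5377 CPM in PM and 6400 to 6797 CPM in vehicle libraries, a sum that was mostly Slc1a2. Its level was 2607 ± 841 CPM in PM libraries and 5757 ± 162 CPM in vehicle libraries. Of the 5 astrocyte markers 3 rose, which were Gfap (1.08 on the log2 scale), Aldoc (1.27) and Aldh1l1 (1.32), and 2 fell, Slc1a2 (-1.16) and Aqp4 (-0.47). Summed levels of oligodendrocyte markers were 3829 to 8896 CPM in PM and 3591 to 4572 CPM in vehicle libraries. Choroid plexus markers, which belong to a neighbouring tissue, ranged from 33.6 to 2490 CPM in PM and from 73.1 to 1275 CPM in vehicle libraries. The part of these differences in the results was not tested, and in bulk tissue fewer cells of a type and less RNA per cell cannot be told apart.

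Chaperones bind proteins that are not yet folded or have lost their fold, and release them in cycles driven by ATP. HSP70 proteins hold short exposed stretches of a client, J-domain proteins (the DNAJ families) deliver clients and start the ATP cycle of HSP70, nucleotide exchange factors such as the HSP110 proteins reset it, and HSP90 completes the folding of kinases and steroid receptors with its own cochaperones. Chaperonins are closed chambers, HSP60 with its lid HSP10 in mitochondria and the ring complex TRiC in the cytosol, where actin and tubulin fold. Heat shock factor HSF1 induces part of these genes under protein stress by binding repeats of the pentamer NGAAN, and the endoplasmic reticulum has its own set, induced by the unfolded protein response. In neurons, J-domain proteins also act on synaptic vesicles, where Dnajc5 guards the release machinery and Dnajc6 helps to strip clathrin coats.

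Among the 72 of 81 genes that passed the filter on low counts, 37 rose in PM, 14 fell and 21 did not pass the test (edgeR quasi-likelihood test with set as covariate, Benjamini-Hochberg adjusted p under 0.05 over all 14982 genes tested). Of all genes tested, 69.1% were called, of which the rises made up 32.7% and the falls 36.4% of the tested genes. The log2 fold change (PM over vehicle, called log2 change where values are listed) had a median of 0.30 for the 72 genes, against -0.04 for all tested genes. With the length and GC trend removed, 43 rose and 12 fell, with a median of 0.38, where 31.8% of all genes rose and 31.7% fell, 63.5% in all. All 6 PM libraries lay above all 5 vehicle libraries for 25 of the genes (24.3% of all genes tested) and below them for 11 (28.1%). Over 2-fold changes were reached by 9 of the genes that rose (11.6% of all genes) and 4 of those that fell (17.1%). These falls and the genes that lay below include Cct8l1, which passed the filter only through the vehicle libraries. Summed over all 81 genes, 9365 ± 1292 CPM was found in PM libraries (SD, n = 6) and 7872 ± 224 CPM in vehicle libraries (SD, n = 5). First-set libraries had 10492 ± 220 CPM in PM and 7788 ± 200 CPM in vehicle (SD, n = 3 each). Second-set libraries had 8239 ± 566 CPM in PM (SD, n = 3) and 7997 ± 262 CPM in vehicle (SD, n = 2). The lowest PM library, in the second set, had 7591 CPM, below the lowest vehicle library at 7642 CPM. CPM with ± below is the mean and SD over the 6 PM or the 5 vehicle libraries.

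**Figure D1:**
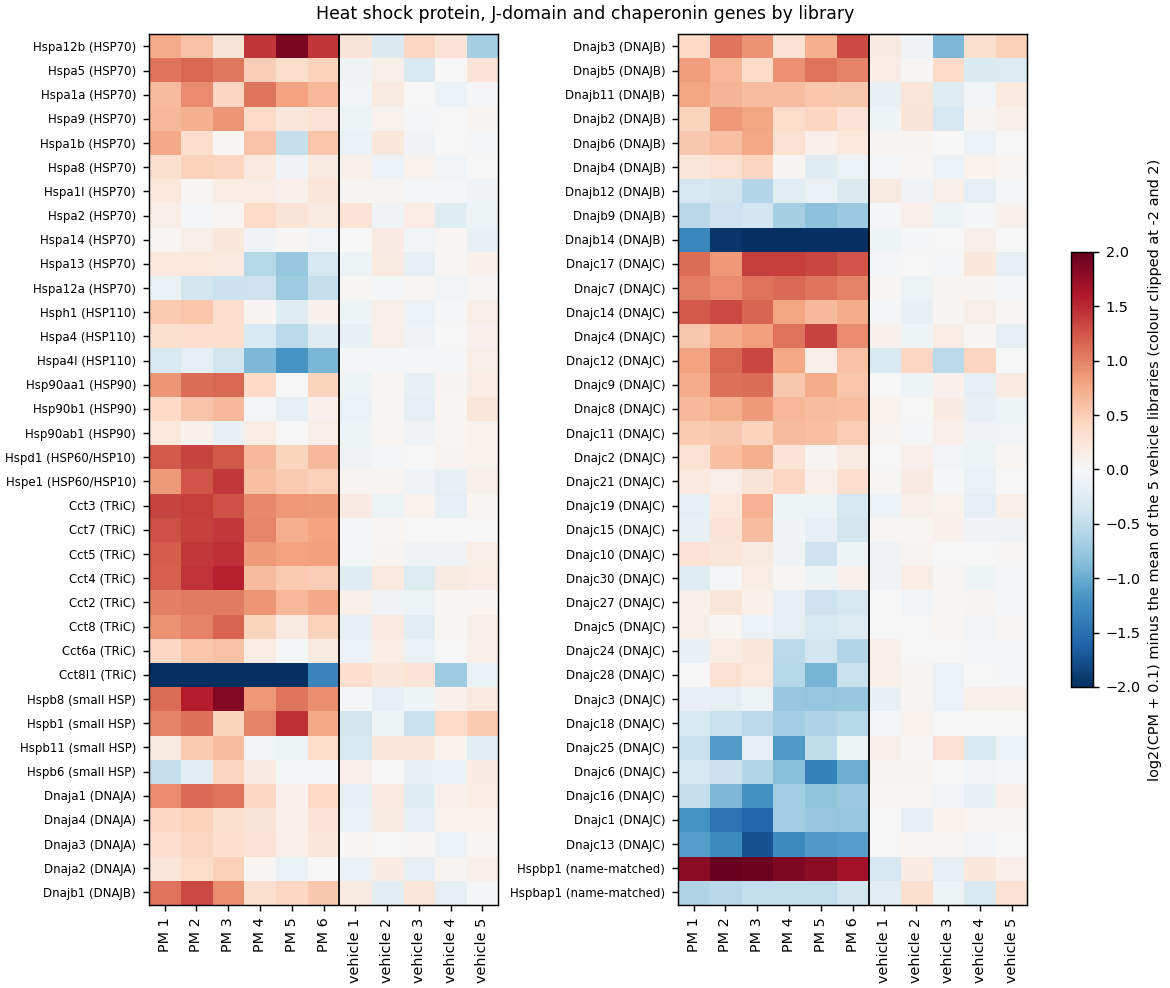
Heat map of the 72 tested genes (rows, with their family) in the 6 PM and 5 vehicle libraries (columns). Colour gives log2(CPM + 0.1) minus the mean of the vehicle libraries, clipped at -2 and 2. Of these genes 37 rose and 14 fell in PM, and Cct2, Cct3, Cct4, Cct5 and Cct7 are red in every PM library while Cct8l1 is blue.

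The 9 genes that the filter left out had few counts. Summed over the 6 PM and the 5 vehicle libraries, Cct6b had 10 and 18 counts, Dnajb13 had 51 and 39, Dnajb7 had 13 and 49, Dnajb8 had 1 and 4, and Dnajc22 had 1 and 1. Among the small heat shock protein genes, Hspb2 had 22 and 4 counts, Hspb3 had 40 and 13, Hspb7 had 31 and 2, and Hspb9 had 18 and 4. Several of these are known from testis (Cct6b, Dnajb13, Dnajb8, Hspb9) or from muscle (Hspb2, Hspb3, Hspb7). No direction was read from them.

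Of the 8 tested Cct genes, 7 rose and 1 fell, where 32.7% of all genes rose and 36.4% fell. The ring of the cytosolic chaperonin TRiC is built from different subunits encoded by Tcp1 and Cct genes. All 7 tested Cct subunit genes rose. They were Cct2, Cct3, Cct4, Cct5, Cct6a, Cct7 and Cct8, with log2 fold changes between 0.33 (Cct6a) and 1.14 (Cct3). Over the 9 Cct genes together, 1027 ± 207 CPM was found in PM libraries (SD, n = 6) and 563 ± 32.1 CPM in vehicle libraries (SD, n = 5). With the trend removed these 7 still rose. Cct8l1, a gene related to Cct8, was called lower, but it passed the filter only through the vehicle libraries.

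Cct3, the gamma subunit (chromosome 3, 88297116 to 88321767, GRCm38), had 118, 120.3 and 112 CPM in the first-set PM libraries and 90.5, 84.2 and 83.7 CPM in the second-set PM libraries, against 51.7, 43.0, 48.8, 41.0 and 47.5 CPM in the vehicle libraries. Every PM library was above every vehicle library (log2 change 1.14 ± 0.090 SE, edgeR adjusted p = 1.105e-07). Cct7, the eta subunit (chromosome 6, 85451514 to 85468475), had 213, 227 and 236 CPM in the first-set PM libraries and 174, 146 and 154 CPM in the second-set PM libraries, against 85.5, 91.0, 88.6, 88.6 and 87.7 CPM in the vehicle libraries, and here too the groups did not overlap (log2 change 1.12 ± 0.10 SE, edgeR adjusted p = 3.949e-07). Cct5, the epsilon subunit, averaged 170.2 ± 36.4 CPM in PM libraries and 78.4 ± 4.87 CPM in vehicle libraries, again without overlap (log2 change 1.12 ± 0.11 SE, edgeR adjusted p = 9.361e-07).

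Cct4, the delta subunit (chromosome 11, 22990519 to 23003780), had the largest of the 5 called differences between sets among the Cct genes. It had 114, 135 and 147 CPM in the first-set PM libraries and 77.0, 71.3 and 69.7 CPM in the second-set PM libraries, against 42.1, 56.9, 40.9, 56.6 and 54.9 CPM in the vehicle libraries. All PM libraries were above all vehicle libraries, with the second-set PM libraries nearest to them (log2 change 1.01 ± 0.19 SE, edgeR adjusted p = 0.0003124). Its log2 fold change was 1.50 ± 0.12 SE in first-set and 0.38 ± 0.14 SE in second-set libraries, a difference of -1.12 (SE 0.18, edgeR adjusted p = 0.0004712). Cct2, the beta subunit, was at 1.05 in first-set and 0.74 in second-set libraries (log2 change 0.91 ± 0.084 SE, edgeR adjusted p = 4.672e-07), and no difference between sets was called (edgeR adjusted p = 0.0906).

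Cct8 and Cct6a, the theta and zeta subunits, overlapped between groups. Cct8 averaged 163 ± 42.5 CPM in PM libraries and 98.6 ± 12.2 CPM in vehicle libraries (log2 change 0.72 ± 0.15 SE, edgeR adjusted p = 0.0005979), with 1.07 in first-set and 0.28 in second-set libraries, where the second-set value did not pass (edgeR adjusted p = 0.07435). Cct6a averaged 147 ± 25.2 CPM in PM libraries and 118 ± 10.7 CPM in vehicle libraries (log2 change 0.33 ± 0.11 SE, edgeR adjusted p = 0.01409), with 0.55 in first-set and 0.044 in second-set libraries, the second again short of the threshold (edgeR adjusted p = 0.7454). Part of the Cct6a transcript, 15.0% of its 100-base windows, also occurs in transcripts of Psph on the opposite strand, and reads of both strands may have been counted, since no source used here names the strand setting.

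Cct8l1 had 18 counts over the PM libraries and 105 over the vehicle libraries. It reached 0.182, 0.118 and 0.0716 CPM in the first-set PM libraries and 0.148, 0.146 and 0.708 CPM in the second-set PM libraries, against 2.46, 2.26, 2.35, 1.14 and 1.76 CPM in the vehicle libraries (log2 change -3.19 ± 0.45 SE, edgeR adjusted p = 2.615e-05). The PM libraries held 3, 2, 1, 2, 2 and 8 counts, most of them at or below the floor of 3 counts. Cct8l1 passed the filter only through the vehicle libraries, where it was higher. No support for a fall was therefore drawn from this p-value or from the lack of overlap. The minimum count of 30 removed it from the test, and PM replicate 6 stood above the other PM libraries.

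Levels of the subunits relative to each other were compared per transcript length, including Tcp1. The highest subunit was 2.32 ± 0.27 times the lowest in PM libraries (SD, n = 6) and 2.47 ± 0.15 times in vehicle libraries (SD, n = 5). By coding length, without Cct6a, for which no coding length was annotated, the ratios were 2.05 ± 0.16 in PM and 2.30 ± 0.22 in vehicle libraries. Tcp1 itself had 148, 164 and 157 CPM in the first-set PM libraries and 104, 100.4 and 97.7 CPM in the second-set PM libraries, against 65.4, 69.7, 60.8, 67.8 and 69.4 CPM in the vehicle libraries, and rose with the others (log2 change 0.95 ± 0.12 SE, edgeR adjusted p = 1.021e-05).

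**Figure D2:**
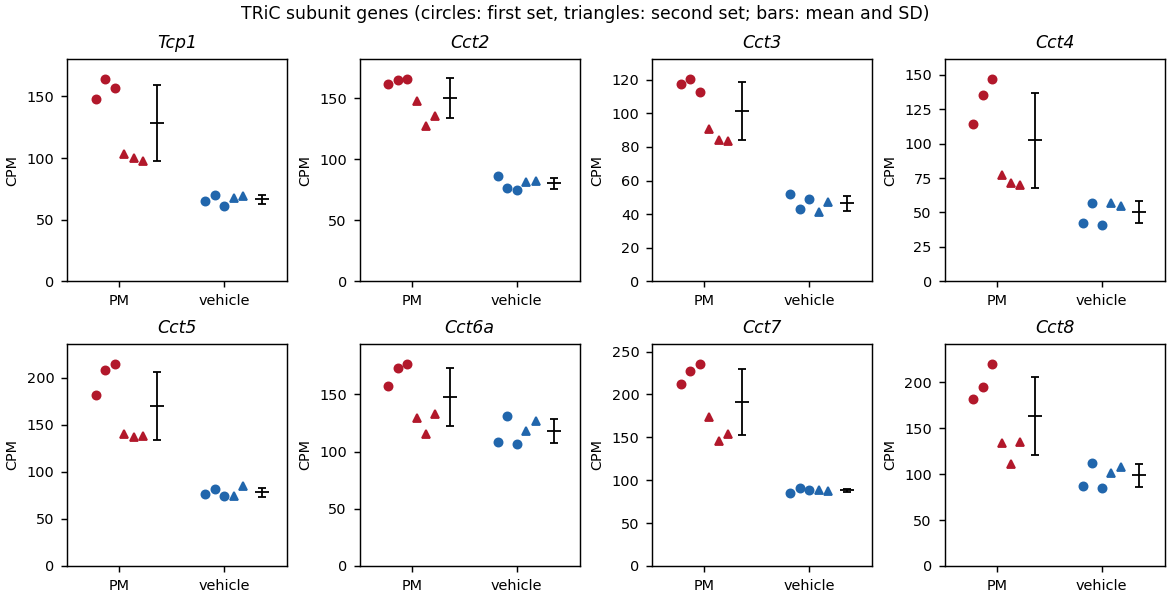
CPM of Tcp1 and the 7 somatic Cct genes per library, PM left of vehicle; circles are first-set and triangles second-set libraries, and bars give the mean and SD (n = 6 and 5). In Tcp1, Cct2, Cct3, Cct4, Cct5 and Cct7 all PM libraries lie above all vehicle libraries, and second-set PM libraries lie below first-set PM libraries.

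Most genes that work upstream of or beside TRiC rose. Of 15 tested genes of prefoldin, which hands nascent actin and tubulin to TRiC, and of the phosducin-like and tubulin cofactors, 11 rose and 0 fell, with a median log2 fold change of 1.05 (over all genes 32.7% rose and 36.4% fell, median -0.04). Tcp1 is counted among them. Pfdn6, a prefoldin subunit, averaged 49.5 ± 5.88 CPM in PM libraries and 13.9 ± 0.925 CPM in vehicle libraries (log2 change 1.85 ± 0.10 SE, edgeR adjusted p = 5.953e-09). Pfdn2, another subunit, averaged 111 ± 22.4 CPM in PM libraries and 31.3 ± 1.48 CPM in vehicle libraries (log2 change 1.84 ± 0.12 SE, edgeR adjusted p = 1.811e-08). The 4 that did not pass were Pdcl, Txndc9, Tbcd and Tbce.

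Both genes of the mitochondrial chaperonin rose. Hspd1, which encodes HSP60 (chromosome 1, 55077835 to 55088243), had 183, 198 and 184 CPM in the first-set PM libraries and 122, 106 and 122 CPM in the second-set PM libraries, against 73.8, 76.2, 76.9, 80.4 and 81.5 CPM in the vehicle libraries. All PM libraries were above all vehicle libraries (log2 change 0.97 ± 0.13 SE, edgeR adjusted p = 1.674e-05), and the log2 fold change was 1.32 ± 0.085 SE in first-set and 0.53 ± 0.10 SE in second-set libraries, a difference of -0.79 (SE 0.13, edgeR adjusted p = 0.0004129). Hspe1, which encodes the lid HSP10, had 66.7, 88.1 and 98.7 CPM in the first-set PM libraries and 55.8, 53.3 and 51.1 CPM in the second-set PM libraries, against 38.3, 38.3, 35.2, 33.2 and 39.8 CPM in the vehicle libraries, also without overlap (log2 change 0.90 ± 0.13 SE, edgeR adjusted p = 4.371e-05), with 1.18 in first-set and 0.54 in second-set libraries (edgeR adjusted p = 0.0195 for the difference). Per transcript length the Hspd1 level was 0.715 ± 0.0985 times that of Hspe1 in PM libraries and 0.676 ± 0.0626 times in vehicle libraries. Of their 100-base windows 26.9% (Hspd1) and 22.4% (Hspe1) also occur in transcripts of other genes, for Hspd1 mainly in the copy Hspd1-ps3.

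Hspd1 and Hspe1 stand head to head on chromosome 1 and are read in opposite directions, and the stretch at their starts is shown because both genes rose. The heat shock element searched for was GAA, 2 bases of any kind, TTC, 2 bases of any kind and GAA, on either strand. It was looked for in RefSeq windows (GRCm38.p6) from 250 bases before to 50 bases after each gene's start, which were at hand for 67 of the 81 genes. The 215 bases between the RefSeq starts, at chr1:55087933-55088147, strand of Hspe1, carry 2 overlapping matches, one on each strand, in capitals. In GENCODE M21, which gave the coordinates printed for genes, the Hspd1 start at 55088243 and the Hspe1 start at 55088132 lie past each other. By that annotation the genes overlap and the stretch lies within Hspd1.
Hspd1-Hspe1: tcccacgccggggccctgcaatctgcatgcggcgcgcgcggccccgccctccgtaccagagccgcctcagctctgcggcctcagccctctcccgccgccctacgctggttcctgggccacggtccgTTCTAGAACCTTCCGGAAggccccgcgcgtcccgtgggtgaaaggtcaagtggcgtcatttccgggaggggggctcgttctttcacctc

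The same motif was found in the windows of 2 further genes, Hsph1 (HSP110) and Dnajb6, both printed on the strand of the gene with the match in capitals. The Hsph1 stretch lies at chr5:149636280-149636308 (minus strand) and the Dnajb6 stretch at chr5:29735832-29735884 (plus strand).
Hsph1: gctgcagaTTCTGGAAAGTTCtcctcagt
Dnajb6: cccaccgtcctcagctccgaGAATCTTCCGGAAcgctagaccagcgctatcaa
In all, 4 of 67 genes (5.97%) had a match, against 0.662% of the 27025 genes with a window. The windows of Hspd1 and Hspe1 overlap by 285 bases and hold the same matches, so this stretch is counted for both genes. The 14 genes without a window include Hsp90aa1, Hsp90ab1 and Hspa8. Of these 4, Dnajb6, Hspd1 and Hspe1 rose in PM and Hsph1 did not pass, with a median log2 fold change of 0.68. The 56 tested genes with a window and no match had a median of 0.28, with 27 that rose and 13 that fell. They include the heat-inducible Hspa1a, Hspa1b, Dnajb1 and Hspb1. Only this spelling was searched, so the lack of a match does not show the lack of a heat shock element. A match is a string of letters in this window and shows no binding.

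Of the 3 HSP90 genes, Hsp90aa1 rose and the others did not pass. Hsp90aa1, the stress-inducible cytosolic form (chromosome 12, 110690605 to 110702728), had 988, 1164 and 1191 CPM in the first-set PM libraries and 705, 533 and 726 CPM in the second-set PM libraries, against 505, 547, 484, 553 and 592 CPM in the vehicle libraries. The 3 first-set PM libraries were the highest, PM replicates 4 and 6 were above all vehicle libraries and PM replicate 5 lay within their range (log2 change 0.70 ± 0.16 SE, edgeR adjusted p = 0.001418). The effect was 1.12 ± 0.12 SE in first-set and 0.19 ± 0.13 SE in second-set libraries, where the second did not pass (edgeR adjusted p = 0.2027), and the difference between sets was -0.93 (SE 0.17, edgeR adjusted p = 0.001098).

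Hsp90ab1, the constitutive cytosolic form, had 1632, 1485 and 1271 CPM in the first-set PM libraries and 1552, 1402 and 1528 CPM in the second-set PM libraries, against 1319, 1447, 1341, 1438 and 1477 CPM in the vehicle libraries. The groups overlapped and no change was called (log2 change 0.069 ± 0.076 SE, edgeR adjusted p = 0.4325). The log2 fold change was -0.12 (SE 0.075, edgeR adjusted p = 0.186) with the trend removed. Per transcript length, Hsp90aa1 was 0.465, 0.602 and 0.720 times Hsp90ab1 in the first-set PM libraries and 0.349, 0.292 and 0.365 times in the second-set ones, against 0.294, 0.290, 0.278, 0.295 and 0.308 times in vehicle libraries. The ratio was highest in the 3 first-set PM libraries, and PM replicate 5 lay within the vehicle range. Of the Hsp90aa1 windows 47.6% also occur in other transcripts, mainly the copy Gm12346, while 0 of the Hsp90ab1 windows do. Reads aligned to several places are not in the gene counts, so these ratios may be too low.

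Hsp90b1, the HSP90 of the endoplasmic reticulum, averaged 331 ± 76.8 CPM in PM libraries and 274 ± 31.3 CPM in vehicle libraries and did not pass (log2 change 0.27 ± 0.14 SE, edgeR adjusted p = 0.103). Its effect was 0.63 ± 0.10 SE in first-set and -0.18 ± 0.11 SE in second-set libraries, a difference of -0.81 (SE 0.15, edgeR adjusted p = 0.001109). Without vehicle replicate 5 it was called higher, at 0.38 (edgeR adjusted p = 0.01827), and without PM replicate 5 likewise, at 0.33 (edgeR adjusted p = 0.04193).

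A list of 20 genes held HSP90 cochaperones and also Trap1, which encodes the mitochondrial HSP90 and does not match the symbol rule. Of these 20 genes, 14 rose and 2 fell, with a median log2 fold change of 0.45 (over all genes 32.7% rose and 36.4% fell, median -0.04). Fkbp8, a membrane-bound immunophilin, averaged 363 ± 20.3 CPM in PM libraries and 129 ± 3.54 CPM in vehicle libraries (log2 change 1.48 ± 0.071 SE, edgeR adjusted p = 2.8e-09). Stub1, the ubiquitin ligase that takes HSP70 and HSP90 clients to degradation, averaged 37.1 ± 2.72 CPM in PM libraries and 14.0 ± 1.45 CPM in vehicle libraries (log2 change 1.39 ± 0.089 SE, edgeR adjusted p = 1.962e-08). The 2 that fell were Cdc37l1 (log2 change -0.78 ± 0.072 SE, edgeR adjusted p = 4.92e-07) and Chordc1 (log2 change -0.26 ± 0.10 SE, edgeR adjusted p = 0.0311), and with the trend removed Cdc37l1 was -0.057 (SE 0.058, edgeR adjusted p = 0.4058) and Chordc1 turned to 0.78 (SE 0.064, edgeR adjusted p = 2.808e-07).

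**Figure D3:**
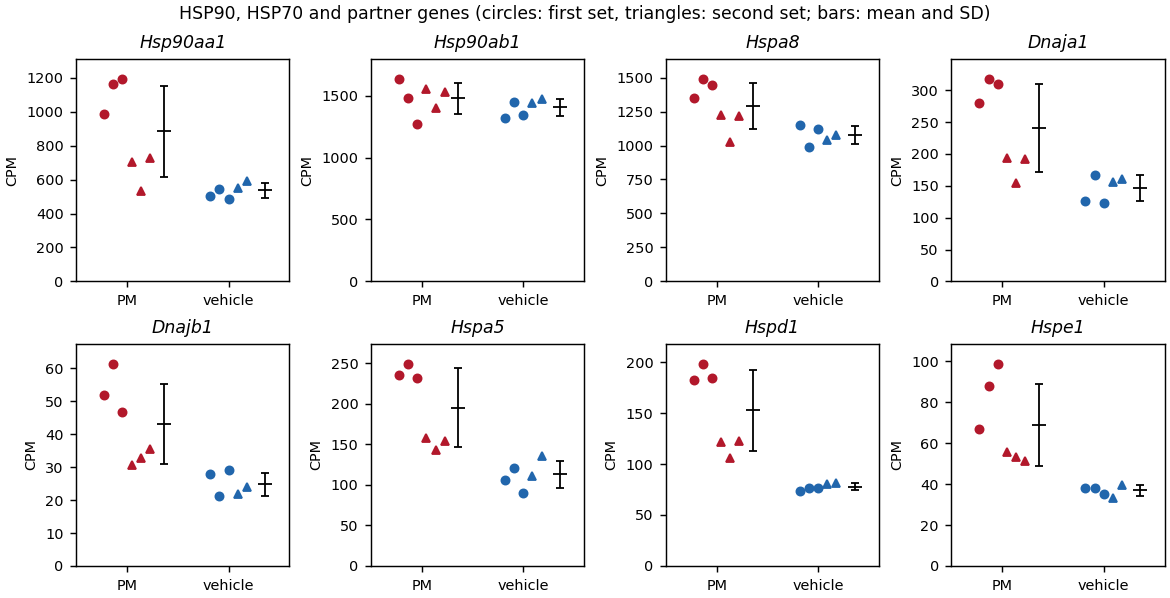
CPM per library of Hsp90aa1, Hsp90ab1, Hspa8, Dnaja1, Dnajb1, Hspa5, Hspd1 and Hspe1, PM left of vehicle; circles are first-set and triangles second-set libraries, and bars give the mean and SD (n = 6 and 5). The groups overlap in Hsp90ab1, and in Hsp90aa1 and Dnaja1 the first-set PM libraries are highest and PM replicate 5 lies within the vehicle range.

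Of the 11 HSP70 genes, 5 rose, 1 fell and 5 did not pass (over all genes 32.7% rose and 36.4% fell). Once the trend was removed 3 rose, Hspa5, Hspa9 and Hspa13, and Hspa2 fell. Hspa8, the constitutive HSP70 of the cytosol and, after Hsp90ab1, the gene of the 81 with the highest mean level per length in both groups, had 1349, 1488 and 1448 CPM in the first-set PM libraries and 1228, 1027 and 1218 CPM in the second-set PM libraries, against 1151, 993, 1124, 1039 and 1077 CPM in the vehicle libraries. PM replicate 5 lay within the vehicle range (log2 change 0.27 ± 0.082 SE, edgeR adjusted p = 0.009008). The change was 0.39 in first-set and 0.13 in second-set libraries, and with the trend removed it was 0.050 (SE 0.082, edgeR adjusted p = 0.6101). Of its windows, 63.4% also occur in other transcripts, mainly Gm26825.

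The inducible pair Hspa1a and Hspa1b was low in both groups. Hspa1a had 7.48, 9.34 and 6.45 CPM in the first-set PM libraries and 10.1, 8.44 and 7.61 CPM in the second-set PM libraries, against 4.59, 5.43, 4.79, 4.41 and 4.73 CPM in the vehicle libraries, and the groups did not overlap (log2 change 0.77 ± 0.14 SE, edgeR adjusted p = 0.0003347). The change was 0.21 (SE 0.14, edgeR adjusted p = 0.2164) with the trend removed. Hspa1b averaged 8.88 ± 2.49 CPM in PM libraries and 6.95 ± 0.699 CPM in vehicle libraries and did not pass (log2 change 0.36 ± 0.20 SE, edgeR adjusted p = 0.1204), but without PM replicate 5 it was called, at 0.47 (edgeR adjusted p = 0.0145). These genes share 56.5% (Hspa1a) and 49.9% (Hspa1b) of their windows, mostly with each other. Reads aligned to several places were left out of gene counts. They made up 7.22% to 9.90% of all counts in PM and 4.21% to 4.75% in vehicle libraries. The levels of both genes may be too low for that reason. Hspa1l, their neighbour, did not pass either (log2 change 0.15 ± 0.092 SE, edgeR adjusted p = 0.1546), and 70.8% of its windows overlap Gm10501 on the other strand.

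Hspa5 encodes BiP, the HSP70 of the endoplasmic reticulum. Located at chromosome 2, 34771970 to 34777547, it had 235, 249 and 232 CPM in the first-set PM libraries and 157, 143 and 154 CPM in the second-set PM libraries, against 107, 121, 90.6, 111 and 136 CPM in the vehicle libraries. All PM libraries were above all vehicle libraries (log2 change 0.78 ± 0.15 SE, edgeR adjusted p = 0.0004389). Its effect was 1.17 ± 0.11 SE in first-set and 0.29 ± 0.12 SE in second-set libraries, with a difference of -0.88 (SE 0.16, edgeR adjusted p = 0.0009932). Hspa9, the mitochondrial HSP70 (mortalin), averaged 213 ± 39.2 CPM in PM libraries and 146 ± 7.01 CPM in vehicle libraries, without overlap (log2 change 0.55 ± 0.10 SE, edgeR adjusted p = 0.0002435).

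Hspa12b, a distant HSP70 relative known from endothelial cells, had a larger effect in the second set. It had 6.56, 5.91 and 4.66 CPM in the first-set PM libraries and 10.6, 14.6 and 10.7 CPM in the second-set PM libraries, against 4.67, 3.17, 5.24, 4.74 and 2.42 CPM in the vehicle libraries. The second-set PM libraries were above all others and PM replicate 3 lay within the vehicle range (log2 change 0.95 ± 0.27 SE, edgeR adjusted p = 0.007077), and the log2 fold change was 0.39 ± 0.24 SE in first-set and 1.81 ± 0.30 SE in second-set libraries, a difference of 1.41 (SE 0.39, edgeR adjusted p = 0.0122). Endothelial markers summed to 136 ± 28.4 CPM in first-set and 161 ± 33.4 CPM in second-set PM libraries (SD, n = 3 each), against 96.6 ± 6.87 CPM in vehicle libraries (SD, n = 5), and their part in this result was not tested. With the trend removed the Hspa12b change was 0.49 (SE 0.22, edgeR adjusted p = 0.06888).

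Hspa12a, the related gene known from brain, fell, with all PM libraries below all vehicle libraries (247 ± 31.7 CPM in PM libraries and 329 ± 8.78 CPM in vehicle libraries, log2 change -0.40 ± 0.084 SE, edgeR adjusted p = 0.0007865), and with the trend removed it was 0.14 (SE 0.073, edgeR adjusted p = 0.1043).

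The other HSP70 genes did not pass. Hspa2, known from testis and also present in brain, was 0.15 (SE 0.11, edgeR adjusted p = 0.2379) with -0.076 in first-set and 0.45 in second-set libraries, and the difference between sets was called (edgeR adjusted p = 0.01758). Hspa13, a microsomal HSP70, was -0.13 (SE 0.15, edgeR adjusted p = 0.4352) with 0.24 in first-set and -0.61 in second-set libraries (edgeR adjusted p = 0.002149 for the difference). Hspa14, a ribosome-associated HSP70, was 0.058 (SE 0.080, edgeR adjusted p = 0.5314), with 0.089 in first-set and 0.020 in second-set libraries.

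The HSP110 genes, which exchange the nucleotide of HSP70, showed 0 rises, 1 fall and 2 that did not pass, and all 3 differed between sets. Hspa4l had 93.4, 104 and 90.2 CPM in the first-set PM libraries and 62.3, 51.7 and 62.1 CPM in the second-set PM libraries, against 113, 115, 115, 114 and 126 CPM in the vehicle libraries. All PM libraries were below all vehicle libraries (log2 change -0.60 ± 0.13 SE, edgeR adjusted p = 0.001004), with -0.26 ± 0.093 SE in first-set and -1.04 ± 0.11 SE in second-set libraries. Its longest transcript is 9479 bases, and with the trend removed the sign turned and the gene was called higher, at 0.79 (SE 0.11, edgeR adjusted p = 2.484e-05). Hspa4 averaged 218 ± 56.9 CPM in PM libraries and 214 ± 16.3 CPM in vehicle libraries (log2 change 0.016 ± 0.13 SE, edgeR adjusted p = 0.9209), with 0.36 ± 0.10 SE in first-set and -0.41 ± 0.11 SE in second-set libraries, both past the threshold in opposite directions. Hsph1, the heat-inducible member, averaged 282 ± 58.8 CPM in PM libraries and 238 ± 18.6 CPM in vehicle libraries (log2 change 0.25 ± 0.12 SE, edgeR adjusted p = 0.07412), with 0.50 in first-set and -0.070 in second-set libraries (edgeR adjusted p = 0.01331 for the difference). Without PM replicate 5 or vehicle replicate 5 Hsph1 was called higher, at 0.31 (edgeR adjusted p = 0.01748) and 0.34 (edgeR adjusted p = 0.02019).

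Among 20 HSP70 cochaperone genes outside the DNAJ families, 10 rose and 5 fell, with a median log2 fold change of 0.25 (over all genes 32.7% rose and 36.4% fell, median -0.04). With the trend removed 7 rose and 6 fell, with a median of 0.14 (31.8% and 31.7% of all genes). Get4, which passes tail-anchored membrane proteins on, averaged 34.9 ± 2.78 CPM in PM libraries and 10.8 ± 0.536 CPM in vehicle libraries (log2 change 1.70 ± 0.091 SE, edgeR adjusted p = 5.127e-09). Gak, the widely expressed relative of Dnajc6, fell (log2 change -0.33 ± 0.077 SE, edgeR adjusted p = 0.001784).

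Small heat shock proteins hold unfolded proteins without ATP. Of the 4 tested genes with Hspb symbols, 2 rose (32.7% of all genes). Hspb11 is counted here by its symbol, while its protein is a subunit of intraflagellar transport. Hspb8, which works with the cochaperone BAG3 in selective autophagy, had 15.4, 21.2 and 25.7 CPM in the first-set PM libraries and 13.0, 15.1 and 13.6 CPM in the second-set PM libraries, against 6.89, 6.34, 6.69, 7.52 and 8.13 CPM in the vehicle libraries, without overlap (log2 change 1.30 ± 0.17 SE, edgeR adjusted p = 1.626e-05). Hspb1, known as HSP25 in mouse, was low, at 5.07 ± 1.21 CPM in PM libraries and 2.59 ± 0.818 CPM in vehicle libraries. PM replicate 3 lay within the vehicle range (log2 change 0.97 ± 0.20 SE, edgeR adjusted p = 0.0008385), and with the trend removed the change was 0.10 (SE 0.23, edgeR adjusted p = 0.7294). Of its windows 42.7% also occur elsewhere, mainly in the copy Hsp25-ps1. Hspb6 (log2 change -0.021 ± 0.18 SE, edgeR adjusted p = 0.9228) and Hspb11 (log2 change 0.30 ± 0.16 SE, edgeR adjusted p = 0.1155) did not pass, and neither did Cryab, the alpha crystallin chain of glia, at 0.23 (SE 0.15, edgeR adjusted p = 0.1971). Removing the trend gave a call for Hspb11 as higher (0.42) and for Hspb6 and Cryab as lower (-0.76 and -0.46).

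Hspbp1 had the largest rise among the 72 genes. It encodes a nucleotide exchange factor of HSP70 that is not a heat shock protein itself. Located at chromosome 7, 4660521 to 4685068, it had 62.3, 70.5 and 68.8 CPM in the first-set PM libraries and 64.7, 62.4 and 57.1 CPM in the second-set PM libraries, against 13.9, 19.9, 15.5, 20.8 and 19.3 CPM in the vehicle libraries. The groups did not overlap (log2 change 1.85 ± 0.11 SE, edgeR adjusted p = 1.525e-08), a 3.61-fold rise, with 2.03 in first-set and 1.62 in second-set libraries, and with the trend removed 0.99 (SE 0.14, edgeR adjusted p = 3.643e-05). Hspbap1, named for its binding to HSP27, fell (4.43 ± 0.250 CPM in PM libraries and 6.42 ± 1.33 CPM in vehicle libraries, log2 change -0.55 ± 0.15 SE, edgeR adjusted p = 0.005161).

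Among the 39 tested of 43 J-domain genes, 19 rose, 10 fell and 10 did not pass, with a median log2 fold change of 0.17 (over all genes 32.7% rose and 36.4% fell, median -0.04). By family, 3 of 4 Dnaja genes rose and 0 fell, 6 of 10 Dnajb genes rose and 3 fell, and 10 of 25 Dnajc genes (40%) rose and 7 (28%) fell, shares near those of all genes. With the length and GC trend removed, 14 of the 25 Dnajc genes rose and 5 fell. Among all 39 J-domain genes 23 rose and 8 fell in that fit, where 31.8% of all genes rose and 31.7% fell. Dnajc genes together summed to 1495 ± 147 CPM in PM libraries (SD, n = 6) and 1655 ± 21.8 CPM in vehicle libraries (SD, n = 5).

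Dnaja1, a cytosolic partner of HSP70 in folding, had 279, 317 and 309 CPM in the first-set PM libraries and 193, 155 and 192 CPM in the second-set PM libraries, against 126, 167, 122, 156 and 159.9 CPM in the vehicle libraries. The first-set PM libraries were the highest and PM replicate 5 lay within the vehicle range (log2 change 0.70 ± 0.16 SE, edgeR adjusted p = 0.001656). The effect was 1.13 ± 0.12 SE in first-set and 0.19 ± 0.14 SE in second-set libraries, a difference of -0.94 (SE 0.18, edgeR adjusted p = 0.00131), and with the trend removed 1.53 (SE 0.13, edgeR adjusted p = 2.778e-07) over all libraries. Of its windows 24.0% also occur in another gene. Dnaja3, the mitochondrial form, rose, with all PM above all vehicle libraries (56.1 ± 3.83 CPM in PM libraries and 45.7 ± 2.00 CPM in vehicle libraries, log2 change 0.30 ± 0.070 SE, edgeR adjusted p = 0.001591). Dnaja4 rose as well (log2 change 0.31 ± 0.092 SE, edgeR adjusted p = 0.00893), but 51.0% of its windows overlap Wdr61 on the other strand. Dnaja2 did not pass (log2 change 0.17 ± 0.11 SE, edgeR adjusted p = 0.1735), with 0.41 in first-set and -0.12 in second-set libraries.

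Dnajb1, the heat-inducible HSP40, had 52.0, 61.3 and 46.8 CPM in the first-set PM libraries and 30.6, 32.8 and 35.6 CPM in the second-set PM libraries, against 27.9, 21.2, 29.0, 21.7 and 23.8 CPM in the vehicle libraries, and all PM libraries were above all vehicle libraries (log2 change 0.82 ± 0.13 SE, edgeR adjusted p = 6.027e-05). Dnajb5, another HSP40, had 134, 119 and 98.2 CPM in the first-set PM libraries and 141, 159.6 and 149 CPM in the second-set PM libraries, against 83.3, 76.7, 98.1, 61.3 and 62.3 CPM in the vehicle libraries. All PM were above all vehicle libraries (log2 change 0.80 ± 0.15 SE, edgeR adjusted p = 0.0003536), and the effect was 0.45 ± 0.11 SE in first-set and 1.28 ± 0.14 SE in second-set libraries, a difference of 0.83 (SE 0.18, edgeR adjusted p = 0.002602). Dnajb3, known from mouse testis, averaged 1.43 ± 0.410 CPM in PM libraries and 0.807 ± 0.285 CPM in vehicle libraries and rose with overlap (log2 change 0.82 ± 0.32 SE, edgeR adjusted p = 0.03365). Its call was lost without vehicle replicate 2 or 3 or PM replicate 2, 3 or 6, where the log2 fold change was 0.64 to 0.81 with edgeR adjusted p = 0.05116 to 0.08958.

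Dnajb6 and Dnajb2 keep aggregation-prone proteins soluble in neurons. Dnajb6 rose, with all PM above all vehicle libraries (108 ± 19.1 CPM in PM libraries and 79.5 ± 3.79 CPM in vehicle libraries, log2 change 0.46 ± 0.085 SE, edgeR adjusted p = 0.0002686), and 36.3% of its windows also occur in another gene. Dnajb2 did so too (74.7 ± 12.9 CPM in PM libraries and 51.7 ± 7.77 CPM in vehicle libraries, log2 change 0.54 ± 0.13 SE, edgeR adjusted p = 0.001918), and with the trend removed it was 0.031 (SE 0.17, edgeR adjusted p = 0.8843). Dnajb4, an inducible HSP40, did not pass (log2 change 0.14 ± 0.10 SE, edgeR adjusted p = 0.2541), with 0.36 in first-set and -0.15 in second-set libraries.

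Dnajb14, a membrane protein of the endoplasmic reticulum, had the largest fall among the 72 genes apart from Cct8l1, whose PM counts were near the floor. Located at chromosome 3, 137867675 to 137916557, it had 13.7, 8.69 and 7.59 CPM in the first-set PM libraries and 5.27, 5.75 and 6.46 CPM in the second-set PM libraries, against 32.1, 33.2, 33.9, 36.3 and 34.2 CPM in the vehicle libraries. The PM libraries were below all vehicle libraries, with the second-set ones lowest (log2 change -2.09 ± 0.18 SE, edgeR adjusted p = 2.561e-07), a 4.27-fold decrease. Its longest transcript has 9477 bases, and with the trend removed the log2 fold change was -0.81 (SE 0.14, edgeR adjusted p = 0.0002393). Its close relative Dnajb12 also fell (log2 change -0.33 ± 0.10 SE, edgeR adjusted p = 0.009771), with overlap, at -0.50 in first-set and -0.10 in second-set libraries, and with the trend removed -0.67 (SE 0.075, edgeR adjusted p = 4.178e-06).

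Among the Dnajc genes that rose, Dnajc7, which binds HSP70 and HSP90 through tetratricopeptide repeats, had 154, 147 and 162 CPM in the first-set PM libraries and 167, 159 and 152 CPM in the second-set PM libraries, against 77.1, 70.9, 78.7, 79.1 and 74.5 CPM in the vehicle libraries, without overlap (log2 change 1.04 ± 0.069 SE, edgeR adjusted p = 2.775e-08), and the effect was 1.03 in first-set and 1.06 in second-set libraries. Dnajc17, tied to splicing and low in both groups, averaged 8.64 ± 1.14 CPM in PM libraries and 3.63 ± 0.386 CPM in vehicle libraries, without overlap (log2 change 1.23 ± 0.14 SE, edgeR adjusted p = 3.108e-06). Dnajc14, known from dopamine receptor export, averaged 45.2 ± 8.93 CPM in PM libraries and 22.5 ± 1.61 CPM in vehicle libraries, without overlap (log2 change 1.02 ± 0.12 SE, edgeR adjusted p = 3.529e-06), although 24.6% of its windows occur in another gene, mainly Ormdl2 on the other strand. The other 7 that rose were Dnajc4, Dnajc12, Dnajc9, Dnajc8, Dnajc11, Dnajc2 and Dnajc21, with log2 fold changes between 0.24 and 0.89. The Dnajc21 call was lost without vehicle replicate 3, 4 or 5 or PM replicate 4, at 0.19 to 0.23.

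Dnajc13 and Dnajc1 led the Dnajc genes that fell. Dnajc13, an endosomal protein that works with HSPA8 on clathrin, had 55.9, 49.1 and 35.6 CPM in the first-set PM libraries and 49.1, 54.6 and 55.9 CPM in the second-set PM libraries, against 118, 123, 122, 115 and 119 CPM in the vehicle libraries. The groups did not overlap (log2 change -1.27 ± 0.11 SE, edgeR adjusted p = 2.117e-07), with -1.37 in first-set and -1.14 in second-set libraries, and with the trend removed the change was -0.22 (SE 0.087, edgeR adjusted p = 0.03998). Dnajc1, a J protein of the endoplasmic reticulum, had 28.8, 23.9 and 22.1 CPM in the first-set PM libraries and 40.7, 39.0 and 38.9 CPM in the second-set PM libraries, against 66.7, 59.2, 69.8, 68.5 and 68.0 CPM in the vehicle libraries, again without overlap (log2 change -1.12 ± 0.12 SE, edgeR adjusted p = 1.775e-06), and it fell less in the second set (-1.39 in first-set and -0.79 in second-set libraries, edgeR adjusted p = 0.009868 for the difference). Dnajc16 averaged 35.5 ± 5.87 CPM in PM libraries and 61.3 ± 4.31 CPM in vehicle libraries, without overlap (log2 change -0.79 ± 0.12 SE, edgeR adjusted p = 3.426e-05). Dnajc25 and Dnajc18 fell by log2 fold changes of -0.55 and -0.52, and Dnajc24 (-0.16) and Dnajc27 (-0.051) did not pass.

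Of 7 genes with known roles at synapses or in neurons, 3 rose, 3 fell and 1 did not pass, with a median log2 fold change of -0.10 (over all genes 32.7% rose and 36.4% fell). With the trend removed 3 rose and 1 fell (31.8% and 31.7% of all genes). Dnajc5, which encodes the cysteine string protein, had 312, 296 and 265 CPM in the first-set PM libraries and 253, 230.3 and 238 CPM in the second-set PM libraries, against 287, 285, 293, 277 and 290.3 CPM in the vehicle libraries. The second-set PM libraries were below all vehicle libraries, while 2 of 3 first-set PM libraries were above them (log2 change -0.10 ± 0.077 SE, edgeR adjusted p = 0.2684), and with the trend removed the gene was called higher at 0.62 (SE 0.071, edgeR adjusted p = 5.25e-06). Its longest transcript is 6578 bases. Dnajc6, which encodes auxilin, had 285, 271 and 243 CPM in the first-set PM libraries and 203, 143 and 186 CPM in the second-set PM libraries, against 379, 378, 362, 351 and 358 CPM in the vehicle libraries, all PM below all vehicle libraries (log2 change -0.72 ± 0.11 SE, edgeR adjusted p = 8.306e-05). The fall was larger in second-set libraries, by a difference of -0.51 (SE 0.17, edgeR adjusted p = 0.03205), and with the trend removed the change was -0.14 (SE 0.10, edgeR adjusted p = 0.2433). The rises were Dnajb2, Dnajb5 and Dnajb6, and the other falls Dnajc13 and Hspa12a.

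Of 9 genes of the endoplasmic reticulum, 2 rose (Hspa5 and Dnajb11), 4 fell (Dnajb9, Dnajc1, Dnajc3 and Dnajc25) and 3 did not pass, with a median log2 fold change of -0.13 (over all genes 32.7% rose and 36.4% fell, median -0.04). Without the trend 6 of the 9 rose and 2 fell. Dnajb11, a BiP partner, averaged 51.2 ± 3.21 CPM in PM libraries and 33.2 ± 5.03 CPM in vehicle libraries, without overlap (log2 change 0.63 ± 0.10 SE, edgeR adjusted p = 0.0001045). Dnajb9, a BiP partner that holds the sensor IRE1 inactive, fell, with all PM below all vehicle libraries (42.0 ± 5.16 CPM in PM libraries and 63.3 ± 3.79 CPM in vehicle libraries, log2 change -0.58 ± 0.086 SE, edgeR adjusted p = 3.907e-05). Dnajc3, an inhibitor of the kinases that phosphorylate eIF2 alpha, had 63.7, 63.1 and 66.6 CPM in the first-set PM libraries and 42.1, 41.4 and 41.9 CPM in the second-set PM libraries, against 64.5, 74.3, 65.7, 76.0 and 76.4 CPM in the vehicle libraries. The second-set PM libraries were below all others (log2 change -0.43 ± 0.13 SE, edgeR adjusted p = 0.008257), with -0.081 ± 0.083 SE in first-set and -0.87 ± 0.095 SE in second-set libraries and a difference of -0.79 (SE 0.13, edgeR adjusted p = 0.0003854), and with the trend removed the sign turned, at 0.23 (SE 0.094, edgeR adjusted p = 0.04304). Without PM replicate 6 its call was lost (-0.34, edgeR adjusted p = 0.06092). Dnajc10 (log2 change 0.052 ± 0.10 SE, edgeR adjusted p = 0.6567), Hsp90b1 and Hspa13 were the 3 without a call. The call of Dnajc25 was lost in 8 of the 11 fits that left out 1 library, all but those without vehicle replicate 4, PM replicate 3 or PM replicate 6.

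Promoters of 3 of these genes carry the endoplasmic reticulum stress element, and are printed because their genes had 3 different outcomes, a rise, no call and a fall. The motif was CCAAT, 9 bases of any kind and CCACG, on either strand, found in 4.48% of the 67 genes with a window and in 0.137% of all 27025. The stretches lie at chr2:34772005-34772063 (plus strand), chr10:86705513-86705676 (minus strand, 2 matches) and chr14:118937807-118937865 (plus strand), each with 20 bases either side of the matches, which are in capitals.
Hspa5: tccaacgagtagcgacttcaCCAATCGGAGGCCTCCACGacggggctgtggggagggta
Hsp90b1: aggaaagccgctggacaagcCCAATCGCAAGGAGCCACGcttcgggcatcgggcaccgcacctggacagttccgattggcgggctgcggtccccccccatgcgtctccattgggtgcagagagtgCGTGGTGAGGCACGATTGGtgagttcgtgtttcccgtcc
Dnajc3: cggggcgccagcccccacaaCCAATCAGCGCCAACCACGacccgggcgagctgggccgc
The log2 fold changes over all libraries were 0.78 for Hspa5, 0.27 for Hsp90b1 and -0.43 for Dnajc3. In the first set they were 1.17, 0.63 and -0.081, and in the second 0.29, -0.18 and -0.87. Each was lower in the second set, by differences of -0.88, -0.81 and -0.79.

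Of 10 tested genes of mitochondrial folding and import, 6 rose, 0 fell and 4 did not pass, with a median log2 fold change of 0.42 (over all genes 32.7% rose and 36.4% fell, median -0.04). Hspd1, Hspe1, Hspa9 and Dnaja3 are given above, and Dnajc4 (log2 change 0.89 ± 0.14 SE, edgeR adjusted p = 5.564e-05) and Dnajc11 (log2 change 0.54 ± 0.072 SE, edgeR adjusted p = 1.625e-05), a factor of mitochondrial cristae, completed the 6. Dnajc4 was at 0.061 (SE 0.10, edgeR adjusted p = 0.6265) with the trend removed. Dnajc15, Dnajc19, Dnajc28 and Dnajc30 did not pass, with log2 fold changes between -0.17 and 0.082. With the trend removed 7 of the 10 rose and 1, Dnajc30, fell, with a median of 0.28 (31.8% and 31.7% of all genes).

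Genes known to be induced by heat shock were described as a list of 11. Of these, 8 rose, 0 fell and 3 (Hspa1b, Hsph1 and Dnajb4) did not pass, with a median log2 fold change of 0.70 (over all genes 32.7% rose and 36.4% fell, median -0.04). The median was 1.04 in the first set, with 10 rises and 0 falls, and 0.31 in the second, with 4 rises and 0 falls. The effect of 6 of the 11 differed between sets, each of them lower in the second. With the length and GC trend removed 7 rose and 0 fell over all libraries, with a median of 0.47 (31.8% and 31.7% of all genes). In that fit Hspa8, Hspa1a and Hspb1 lost their calls, while Hsph1 and Dnajb4 were called higher. The summed level of the 11 genes was 3342 to 3748 CPM in first-set and 2170 to 2663 CPM in second-set PM libraries, against 2149 to 2297 CPM in vehicle libraries. Most of this sum was the constitutive Hspa8 and Hsp90aa1, with means of 1428 and 1114 CPM in first-set and 1158 and 655 CPM in second-set PM libraries. Hspa1a and Hspa1b added at most 10.1 and 11.8 CPM in any library.

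Of 5 tested genes of heat shock factors and their binding proteins, 1 rose and 2 fell (32.7% and 36.4% among all genes), and with the trend removed 1 rose and 3 fell. Hsf1, the main stress-responsive factor, was named after its values were seen. It averaged 41.7 ± 18.1 CPM in PM libraries and 31.4 ± 3.36 CPM in vehicle libraries and did not pass (log2 change 0.21 ± 0.21 SE, edgeR adjusted p = 0.3977), with -0.37 ± 0.11 SE in first-set and 0.99 ± 0.12 SE in second-set libraries, both past the threshold in opposite directions (edgeR adjusted p = 5.119e-05 for the difference). Hsf1 was called lower with the trend removed, at -0.49 (SE 0.16, edgeR adjusted p = 0.01582). Hsf4, the factor of lens development, rose (log2 change 1.20 ± 0.14 SE, edgeR adjusted p = 3.437e-06), while Hsf2 (log2 change -0.48 ± 0.10 SE, edgeR adjusted p = 0.001012) and Hsf5 (log2 change -1.93 ± 0.36 SE, edgeR adjusted p = 0.0002803) fell. Of 10 genes of disaggregation and protein quality control, 6 rose and 1 fell (4 and 1 with the trend removed), where 32.7% of all genes rose and 36.4% fell. They were led by the mitochondrial protease gene Lonp1 (log2 change 1.33 ± 0.090 SE, edgeR adjusted p = 3.084e-08) and the autophagy receptor gene Sqstm1 (log2 change 0.95 ± 0.066 SE, edgeR adjusted p = 4.053e-08), while Ubqln2, which shuttles ubiquitinated proteins, fell (log2 change -0.54 ± 0.079 SE, edgeR adjusted p = 3.68e-05).

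In the first set 41 of the 72 rose and 13 fell (32.1% and 38.9% of all genes, 71.0% in all), with a median log2 fold change of 0.41. In the second set 27 rose and 17 fell (32.3% and 32.5% of all genes, 64.8% in all), with a median of 0.19. In both sets 24 were called higher (23.1% of all genes) and 10 lower (26.2%), and 1, Hspa4, was called in opposite directions (3.41%).

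The difference itself passed the test for 30 of the 72 genes, against 29.6% of all genes. The PM libraries of the sets also differed in whole-library measures, with reads in no annotated exon at 20.4% ± 1.38 in the first and 31.7% ± 2.34 in the second (SD, n = 3 each). Of their gene counts, Rn45s took 14.4% ± 2.42 in the first and 5.60% ± 2.22 in the second, and Malat1 0.112% ± 0.0449 in the first and 0.766% ± 0.0476 in the second. In vehicle libraries the first set (n = 3) and second set (n = 2) had 61.3% ± 0.608 and 61.5% ± 0.192 in no annotated exon. Rn45s took 1.25% ± 0.787 of gene counts in the first and 2.04% ± 0.179 in the second, and Malat1 2.21% ± 0.108 in the first and 2.17% ± 0.0124 in the second. The part of these measures in the differences between sets was not tested. Of the 30 genes, 26 were lower in the second set (12.1% of all genes) and 4 higher (17.5%), which were Hspa12b, Dnajb5, Dnajc1 and Hspa2. With library sizes taken as total counts and no TMM scaling, 14 were lower and 6 higher, and over all genes 900 were lower and 3372 higher, against 1810 and 2618 with TMM. With DESeq2 size factors 31 of the 72 genes were lower and 4 higher, and over all genes 2370 and 2274. Leaving out vehicle replicate 5 gave 14 lower and 2 higher. Mean log2 CPM of the second set minus that of the first had a median of -0.35 over the 72 genes in PM libraries, with 52 genes below 0, and of 0.014 in vehicle libraries, with 35 below 0. It exceeded 0.5 in size for 26 genes in PM and for 3 in vehicle libraries.

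**Figure D4:**
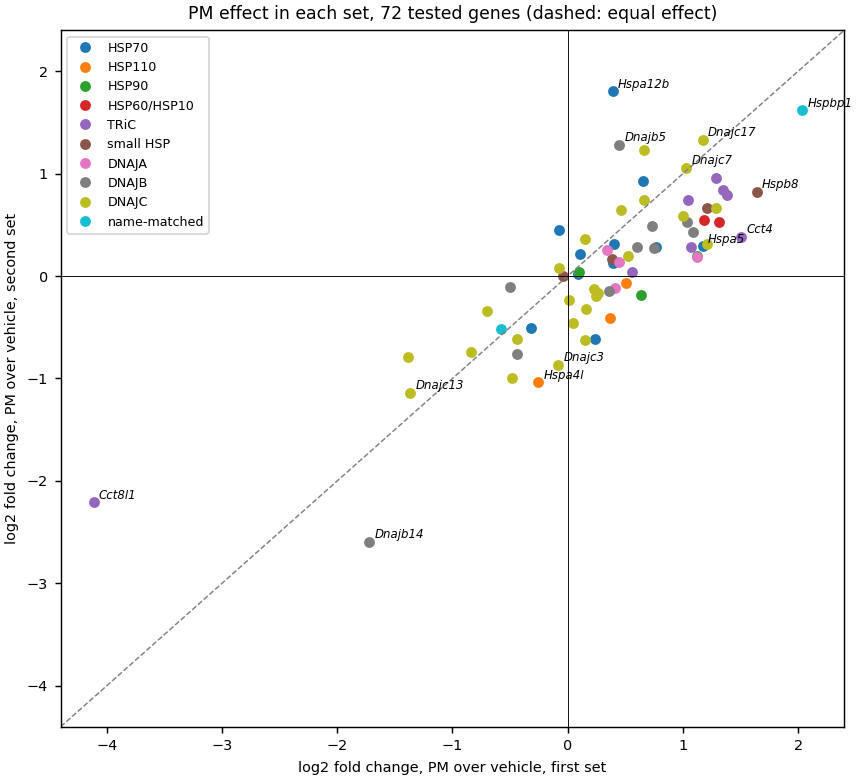
Log2 fold change of PM over vehicle in the second set (vertical) against the first (horizontal) for the 72 tested genes (points coloured as in its legend); the dashed line marks equal effects. Most points lie below the line (26 genes called lower in the second set), and Hspa12b and Dnajb5 lie above it.

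The Spearman correlation of log2 fold change with transcript length was -0.484 over the 72 genes and -0.495 over all genes with a length, and with GC content it was 0.338 and 0.394, all given as descriptions over genes that share the same libraries. All tested genes were split by length into 5 groups of like size. Of the 13 genes here with transcripts up to 1791 bases, 8 rose and 1 fell (59.6% and 16.1% of all genes in that group). Of the 10 with transcripts of 5176 bases or more, 1 rose and 7 fell (5.55% and 75.8% of all genes). In the middle group, from 2708 to 3689 bases, 12 of 17 rose and 1 fell (32.4% and 27.0% of all genes), with a median log2 fold change of 0.54 against 0.028 over all genes of that length. The long gene that rose was Dnaja1, at 5622 bases.

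**Figure D5:**
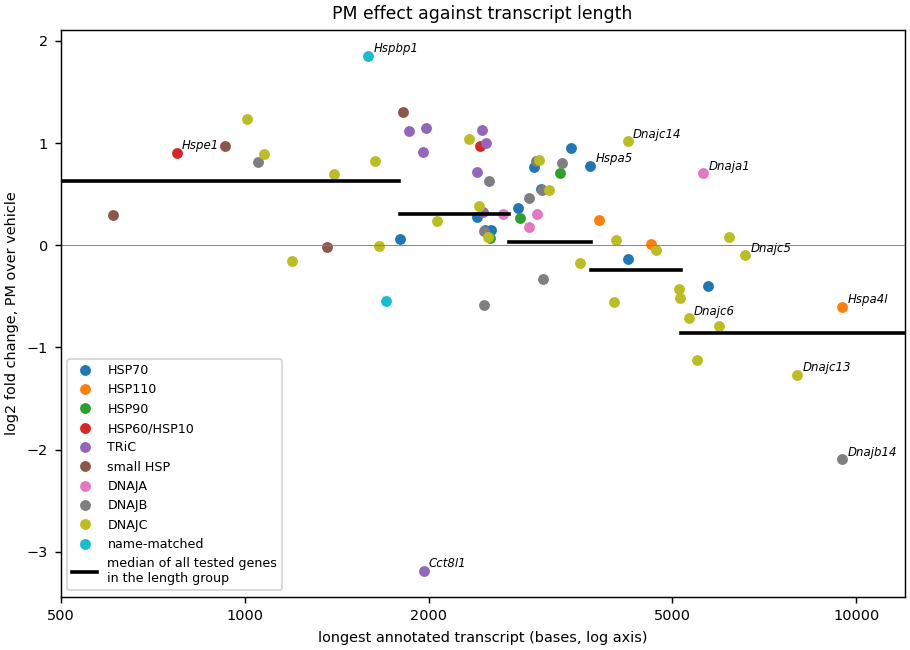
Log2 fold change of PM over vehicle (vertical) against the longest annotated transcript (horizontal, log axis) for the 72 tested genes, coloured by family; black lines give the median of all tested genes in each of 5 length groups. The points fall with length as all genes do (Spearman correlation -0.484 and -0.495), and Dnaja1 and Dnajc14 lie above the line of their length group.

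With the trend removed, 37 of the 51 calls stayed in the same direction. The 12 that were lost were Dnajb2, Dnajb3, Dnajc4, Dnajc6, Dnajc18, Dnajc21, Dnajc25, Hspa1a, Hspa8, Hspa12a, Hspa12b and Hspb1, and 2, Dnajc3 and Hspa4l, turned from lower to higher. This also brought calls for genes that had not passed, such as Dnajc5, Dnaja2 (log2 fold change 0.41), Dnajb4 (0.41), Hsph1 (0.47), Hspa4 (0.45) and Hsp90b1 (0.45), all higher, and Hspa2 (-0.21), Hspb6, Dnajc24 (-0.37) and Dnajc30 (-0.64), all 4 lower. The TRiC, Hspd1, Hspe1, Hspa5, Hspa9, Hsp90aa1, Dnaja1 and Dnajb1 rises were called in both fits.

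Levels were also taken as counts per transcript base, scaled to the same total in every library, and the genes were ordered by their mean in each group. Hsp90ab1 had the highest mean in both groups, at 1785 ± 235 in PM libraries and 1998 ± 94.8 in vehicle libraries, and Hspa8 the next, at 1629 ± 152 in PM and 1614 ± 110.3 in vehicle libraries (scaled counts per base, SD). In PM libraries the difference between these neighbours was below the SD of Hsp90ab1 but not below that of Hspa8. The order did not hold in every library. In PM replicates 2 and 3 Hspa8, the shorter transcript, had 1488 and 1448 CPM, against 1485 and 1271 CPM for Hsp90ab1. Hsp90aa1 was the third, at 806 ± 203 in PM and 586 ± 45.9 in vehicle libraries, and Hsp90b1 the fourth, at 352 ± 61.9 in PM and 348 ± 39.5 in vehicle libraries. The order below differed between groups. Cct5 and Hspe1 stood at ranks 5 and 6 in PM and at 14 and 11 in vehicle libraries, while Dnajc6 stood at rank 22 in PM and 5 in vehicle libraries, with 125 ± 27.8 in PM and 246 ± 7.17 in vehicle libraries. Because reads aligned to several places were not counted, levels of genes with shared windows, such as Hspa8 and Hsp90aa1, may be too low.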

How the data were processed

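Ribosomal RNA was removed and 100-base paired reads were made on an Illumina instrument, per the labels' protocols, although another label names polyA RNA. The deposited values are counts per gene, made by the authors from reads trimmed with Trimmomatic 0.36, aligned with STAR and counted with HTSeq 0.9.1, per the submitters' processing notes. Those notes name mm10 and also hg19, and no strand setting is stated in any source used here. Library totals were 10938521 to 17763893 gene counts in PM and 6012116 to 12496651 in vehicle libraries, and 3 counts corresponded to 0.177 to 0.490 CPM. The rows that name no gene stayed out of library sizes and tests, with reads lacking an annotated exon at 26.0% ± 6.46 of all counts in PM (SD, n = 6) and 61.4% ± 0.46 in vehicle libraries (SD, n = 5).

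Counts were fitted with edgeR 4.0.16 (robust quasi-likelihood, TMM scaling, filterByExpr with a minimum count of 10) in R 4.3.3, with set as covariate over all 11 libraries. Per-set effects came from 1 model with a mean for each of the 4 pairings of group and set, which also gave their difference. All tests were two-sided with Benjamini-Hochberg adjustment over 14982 genes at 0.05, and SE is the log2 fold change divided by the root of F. The trend over transcript length and GC content was removed with splines of 5 degrees of freedom, entered as offsets per library. Lengths came from GENCODE M21 (GRCm38), which matched 98.6% of symbols. Alternatives were DESeq2 1.42.0, other scalings and filters, each set alone, a replicate block and each library left out. The scripts were tested on simulated data.

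The genes and lists were chosen with earlier results of these data known. Named with values were the Cct, HSP90, Hspd1 and Hspe1 genes, the heat-inducible and synaptic lists, up to 3 rises and 3 falls of largest size in each other class with a mean of at least 1 CPM, the 5 genes of smallest p for the difference between sets, and up to 2 partner genes in each direction per list. A gene that this rule selects among the partner genes is not reported here.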

Additional observations from a re-analysis of the deposited data

Results flagged for a closer look

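Each of the 144 groups of libraries, 72 genes in 2 groups, was searched for a library standing apart by Dixon's criterion, which chance meets in about 1 in 20 groups. It was met 4 times. Cct8l1 was 0.708 CPM in PM replicate 6, above the other PM libraries. Dnajc13 was 35.6 CPM in PM replicate 3, below the other PM libraries. Dnajc24, a factor of diphthamide synthesis, was 8.47 CPM in vehicle replicate 1, and Hspa4l was 126 CPM in vehicle replicate 5, each apart from the other vehicle libraries.

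The PM effect differed between the sets for 30 of the 72 genes by the edgeR test of the difference itself, given here as the log2 fold change of the second set minus that of the first. It was higher in the second set for Hspa12b (1.41), Dnajb5 (0.83), Dnajc1 (0.60) and Hspa2 (0.52). Among TRiC genes it was lower for Cct4 (-1.12), Cct8 (-0.79), Cct5 (-0.59), Cct6a (-0.51) and Cct7 (-0.51). Among HSP70 and HSP110 genes it was lower for Hspa5 (-0.88), Hspa13 (-0.85), Hspa4l (-0.78), Hspa4 (-0.77), Hsph1 (-0.57) and Hspa9 (-0.49). Among the HSP90, small heat shock protein and mitochondrial chaperonin genes it was lower for Hsp90aa1 (-0.93), Hspb8 (-0.82), Hsp90b1 (-0.81), Hspd1 (-0.79) and Hspe1 (-0.64). Among J-domain genes it was lower for Dnaja1 (-0.94), Dnajb14 (-0.88), Dnajc3 (-0.79), Dnajc28 (-0.78), Dnajc14 (-0.62), Dnaja2 (-0.53), Dnajb4 (-0.51), Dnajc6 (-0.51), Dnajc27 (-0.48) and Dnajc10 (-0.45). What differs between the sets beside their PM libraries was not tested.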

How the results depend on the processing

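In the 11 fits that left out 1 library, 35 to 40 of the 72 genes rose and 13 to 14 fell. DESeq2's Wald test kept all 51 calls, the first set alone 45 and the second set alone 39. Leaving out Rn45s, Lars2 and Mir6236 moved the median of all genes to 0.06, against -0.04 with them, and gave 42 rises and 12 falls. Same-numbered libraries did not deviate together, with correlations of -0.17 to -0.011, and no vehicle library correlated best with its own number. The replicate block gave 33 rises and 12 falls, kept 45 calls and lost Cct6a, Dnajb12, Dnajb3, Dnajc21, Dnajc3 and Hspa8. No mitochondrial-genome rows were in the files, so none could be left out.

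In the second set 11 genes fell with the trend removed, against 17 without that step, and 17 to 30 rose when 1 library was left out (17 without vehicle replicate 4). The difference between sets was lower in the second for 14 genes under total counts, and over all genes for 900. Leaving out 1 library gave 2 to 5 higher and 14 to 36 lower among the 72 genes, and 1653 to 3151 higher and 747 to 2461 lower among all genes, with the lowest counts without vehicle replicate 5. The cause was not tested.

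Signs turned for the following genes, given as log2 fold changes. With the trend removed they were 0.78 for Chordc1, 0.0098 for Dnajc18, 0.26 for Dnajc27, 0.046 for Dnajc28, 0.23 for Dnajc3, 0.62 for Dnajc5, -0.12 for Hsp90ab1, 0.14 for Hspa12a, 0.42 for Hspa13, -0.10 for Hspa14, -0.20 for Hspa1b, -0.19 for Hspa1l, -0.21 for Hspa2 and 0.79 for Hspa4l. In the first set alone they were 0.026 for Chordc1, 0.15 for Dnajc24, 0.26 for Dnajc27, 0.25 for Dnajc28, 0.017 for Dnajc3, 0.022 for Dnajc30, 0.11 for Dnajc5, 0.33 for Hspa13 and 0.054 for Hspb6. In the second set alone they were -0.11 for Dnaja2, -0.14 for Dnajb4, -0.19 for Dnajc10, -0.11 for Dnajc15, -0.15 for Dnajc19, 0.089 for Dnajc30, -0.17 for Hsp90b1, -0.40 for Hspa4, 0.010 for Hspb6 and -0.061 for Hsph1. Dnajc30 and Hspb6 were 0.019 and 0.0068 by DESeq2's Wald test, 0.021 and 0.0089 with its size factors, 0.086 and 0.074 without a filter, and 0.091 and 0.079 without Rn45s, Lars2 and Mir6236. Dnajc27 was 0.042 without a filter, and without those 3 genes Dnajc27 was 0.049 and Dnajc5 0.00079. Hspa4 was -0.011 at a minimum count of 30. With 1 library left out, Dnajc15 ranged from -0.045 to 0.18, Dnajc19 from -0.077 to 0.19, Dnajc27 from -0.099 to 0.032, Dnajc30 from -0.051 to 0.048, Hspa4 from -0.061 to 0.11 and Hspb6 from -0.18 to 0.075. The cause of these turns was not tested.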
